A study of Mus musculus with 4 samples.

Results

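The genes described here are 28 genes of sterol and fatty acid synthesis, measured in lung group 2 innate lymphoid cells (ILC2s). They were chosen by name as enzymes of the mevalonate pathway and of cholesterol synthesis, regulators of these pathways, and enzymes that make, elongate or desaturate fatty acids. All 28 of the names were found among the 17187 genes of the deposited table. ILC2s are tissue lymphocytes that lack antigen receptors and secrete type 2 cytokines. CD226 is an activating receptor of lymphocytes. Sorted lung ILC2s of BALB/c mice were cultured for 18 hours with an antibody against CD226 (2 libraries, called anti-CD226 1 and 2) or with an isotype control antibody (2 libraries, isotype 1 and 2). The stated antibody concentration of 5 µg/mL may or may not cover the isotype control, and no genetic alteration is named for either group. The series' design text places the antibody treatment in the mice, and a column of the deposited table names the controls PBS. The groups here follow the sample labels. The labels do not tell whether a group's 2 libraries stem from different mice or cultures, so each p-value reflects library-to-library spread only, part or all of which may be technical.

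Cells make sterols from acetyl-CoA through mevalonate, squalene and lanosterol, and make fatty acids from the same acetyl-CoA through malonyl-CoA. The transcription factors SREBP1 and SREBP2, products of Srebf1 and Srebf2, activate most genes of both routes when sterols in the endoplasmic reticulum are low, and INSIG proteins hold their precursors back when sterols are high. SREBPs bind sterol regulatory elements in promoters, usually beside CCAAT boxes bound by the factor NF-Y and GC boxes bound by SP1. In lymphocytes these pathways supply membrane and signalling lipids during activation and division. In bulk RNA, fewer cells with a transcript and less of it per cell cannot be told apart.

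CCAAT boxes stood in the promoters of most of these genes, so 4 examples are printed to show them, from RefSeq on GRCm38.p6. They are Hmgcs1 at chr13:119690101-119690350 (plus strand), Insig1 at chr5:28071162-28071362 (plus strand), Srebf2 at chr15:82147019-82147180 (plus strand) and Fasn at chr11:120824548-120824797 (minus strand). Each runs 5′ to 3′ on the strand of the gene and stops before the first annotated start in RefSeq or GENCODE M21, after 250, 201, 162 and 250 bases in that order. Capitals mark CCAAT on either strand (read as ATTGG on the other) and TCACNCCA, a core of the sterol regulatory element.
Hmgcs1: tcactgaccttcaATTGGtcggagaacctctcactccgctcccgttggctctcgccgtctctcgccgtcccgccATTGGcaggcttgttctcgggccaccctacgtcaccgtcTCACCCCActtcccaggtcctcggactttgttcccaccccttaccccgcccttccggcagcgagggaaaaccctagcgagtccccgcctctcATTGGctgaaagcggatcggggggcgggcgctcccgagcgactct
Insig1: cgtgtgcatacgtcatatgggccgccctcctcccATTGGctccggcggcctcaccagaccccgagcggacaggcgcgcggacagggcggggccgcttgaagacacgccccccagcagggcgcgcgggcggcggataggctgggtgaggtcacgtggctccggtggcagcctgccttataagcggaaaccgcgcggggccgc
Srebf2: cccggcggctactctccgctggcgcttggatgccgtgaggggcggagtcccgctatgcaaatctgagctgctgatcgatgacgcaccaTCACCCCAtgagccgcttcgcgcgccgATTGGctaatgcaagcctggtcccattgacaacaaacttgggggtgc
Fasn: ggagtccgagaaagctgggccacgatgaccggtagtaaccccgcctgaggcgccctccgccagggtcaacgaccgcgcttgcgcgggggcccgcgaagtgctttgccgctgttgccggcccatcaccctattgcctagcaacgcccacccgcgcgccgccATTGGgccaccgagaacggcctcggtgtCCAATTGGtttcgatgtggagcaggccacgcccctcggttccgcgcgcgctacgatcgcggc
Hmgcs1 held CCAAT at 3 places and the element once, Srebf2 held one of each, Insig1 held CCAAT once, and Fasn held CCAAT at 3 places, of which a pair overlaps as CCAATTGG.

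A RefSeq promoter was found for 21 of the 28 genes, and the 250 bases before the start were searched on both strands. A gene counted when any of its listed starts held the motif, and matches of different motifs could overlap. CCAAT was found in 17 of the 21, against 41.1% of 9124 genes tested that had a promoter. The GC box GGGCGG was found in 17 of the 21, against 64.8% of those genes. TCACNCCA was found in 3 of the 21 (Hmgcs1, Msmo1 and Srebf2), against 3.91%. The E-box CACGTG was found in 4 of the 21 (Hsd17b7, Sc5d, Dhcr7 and Insig1), against 10.2%. The 4 genes with a promoter and no CCAAT in it were Acaca, Acly, Elovl6 and Fads2, all of the fatty acid branch. Of that branch, Fasn held CCAAT, and Scd1, Scd2 and Fads1 were not searched, as no promoter was found for them. A match is letters only, and binding was not measured.

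The values are normalised read counts, which the authors deposited after scaling each library. Estimated depths were 13521606 and 12474356 reads in the anti-CD226 libraries and 12433851 and 17847576 in the isotype libraries. The ILC2 factor Gata3 had 14911 and 17310 normalised reads in anti-CD226 libraries and 14198 and 13811 in isotype libraries. Il1rl1, the IL-33 receptor chain of ILC2s, had 9037 and 8308 in anti-CD226 libraries and 9004 and 8220 in isotype libraries. Of the 12 ILC2 markers looked up, 6 were higher and 6 lower on average in anti-CD226 libraries. None passed the test of group difference given below. Their log2 fold changes ran from -0.96 for Il13 to 0.34 for Rora. Il13 had 2725 and 921 in anti-CD226 libraries and 2773 and 3419 in isotype libraries. Of 16 markers of lung macrophages and monocytes, 11 had a value, and their sum was 595 and 1928 normalised reads in anti-CD226 libraries against 304 and 292 in isotype libraries. Chil3, which alveolar macrophages express, had 16.5 and 784 in anti-CD226 libraries and 19.9 and 0 in isotype libraries, and the macrophage elastase Mmp12 had 168 and 678 in anti-CD226 libraries and 34.3 and 2.32 in isotype libraries. Mpeg1 had 4.12 and 16.5 in anti-CD226 libraries and was listed at 0 in both isotype libraries. Sftpc, the surfactant gene of alveolar type II cells, was listed at 0 except for 22.4 in isotype 2. The libraries also differed along transcript length: the longest decile of genes tested had a median log2 deviation from the gene's own mean of -0.10 and 0.32 in anti-CD226 1 and 2 and of 0.01 and -0.20 in isotype 1 and 2.

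None of the 28 genes passed the test of a difference between the groups. That test was limma on log2(value + 1) over the 13010 genes with a mean of 10 or more, with Benjamini-Hochberg adjustment over all of them, and all 28 genes were among those tested. The number of genes called at an adjusted p below 0.05 was 0 of 28, against a background of 0 of 13010 (0.00%), and their limma adjusted p-values lay between 0.982 and 0.997. At an unadjusted limma p below 0.05 the number was again 0 of 28, against 308 genes in all (2.37%), and the smallest p was 0.239, for Hmgcs1. Of the 28, 15 were higher and 13 lower on average in anti-CD226 libraries (53.6% higher, against 51.1% of genes tested), and scaling to the upper quartile left 12 higher. The median log2 fold change was 0.0033, against 0.0066 over all genes tested. The groups did not overlap for 4 of the 28 (14.3%, against 26.8% of genes tested), namely Hmgcs1 and Elovl6, higher with anti-CD226 (13.8% of genes tested were), and Insig1 and Sc5d, lower (13.0%). None of the 28 differed by 1.5-fold between the groups, against 978 genes in all (7.52%).

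The precision of these comparisons differed by gene. The 95% interval of the fold change lay within 1.5-fold either way for 15 of the 28 (53.6%, against 31.8% of genes tested), among them all 10 enzymes of the squalene and sterol group. The median SD of the log2 values over the 4 libraries was 0.16 for the 28 genes and 0.22 for all genes tested. The ratio of the highest to the lowest library had a median of 1.28 for the 28 genes, against 1.42 for all genes tested, and it ran from 1.10 for Idi1 to 2.22 for Fasn. These comparisons with all genes tested were not matched for level. Of the 28 genes, 27 lay above 100 normalised reads in every library, while genes tested reached down to a mean of 10. Summed, the 28 genes made up 0.340% and 0.415% of the anti-CD226 libraries and 0.380% and 0.316% of the isotype libraries. The mean was 0.378% ± 0.053 with anti-CD226 and 0.348% ± 0.045 with isotype (SD, n = 2 each), and the exact two-sided permutation test gave p = 0.667, where 2 against 2 cannot go below 0.333.

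**Figure D1:**
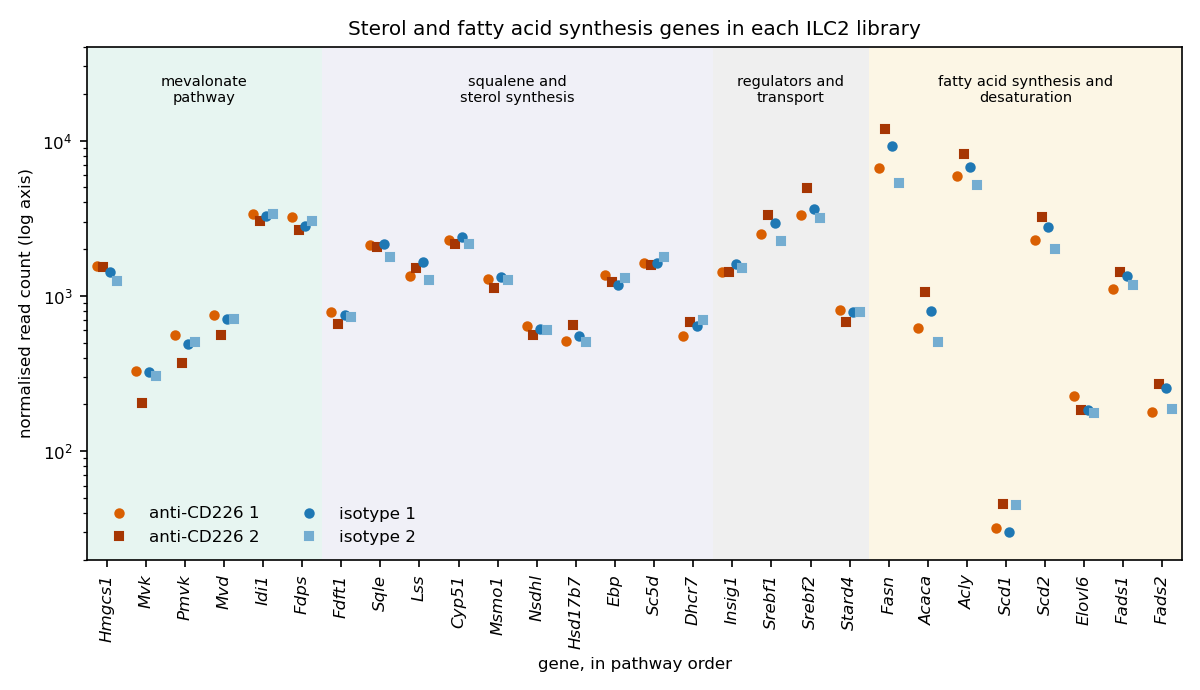
Normalised read counts (log axis) of the 28 genes in each library, in pathway order, with anti-CD226 libraries in orange and red and isotype libraries in blues. Fasn spans 5348 to 11847 normalised reads with the groups interleaved, while Idi1 spans 3046 to 3356.

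The 6 genes of the mevalonate pathway, which turns acetyl-CoA units into farnesyl diphosphate, had a median log2 fold change of -0.09, with 2 higher and 4 lower on average in anti-CD226 libraries. Hmgcs1, the cytosolic HMG-CoA synthase, lies on chromosome 13 at chr13:119690379-119708260 (GENCODE M21 on GRCm38, as for all genes below). It had 1549 and 1543 normalised reads in anti-CD226 libraries, against 1423 and 1251 in isotype libraries. Both anti-CD226 libraries lay above both isotype libraries, yet the log2 fold change of 0.21 ± 0.17 (SE) did not pass limma's test (adjusted p = 0.982). Its 95% interval ran from -0.17 to 0.60 on the log2 scale.

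Mvk, mevalonate kinase, had 329 and 205 normalised reads in anti-CD226 libraries and 325 and 307 in isotype libraries. Anti-CD226 2 was the low library, and anti-CD226 1 lay close to isotype 1. Its log2 fold change was -0.28 ± 0.25 (SE; limma adjusted p = 0.982), the lowest of the 28. Pmvk, phosphomevalonate kinase, had 558 and 370 in anti-CD226 libraries and 493 and 505 in isotype libraries. Again anti-CD226 2 was lowest while anti-CD226 1 was highest. Mvd, the mevalonate diphosphate decarboxylase, had the same order of libraries at its ends, with 751 and 563 in anti-CD226 libraries and 707 and 714 in isotype libraries.

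Per kilobase of transcript, the last enzymes of the pathway were its most abundant. Fdps, farnesyl diphosphate synthase, had 3235 and 2639 normalised reads in anti-CD226 libraries and 2820 and 3012 in isotype libraries, so that the isotype values lay between those of anti-CD226. Its log2 fold change was 0.0037 ± 0.17 (SE), and below 0 when libraries were scaled to the total, the upper quartile or by quantiles. Idi1, the isopentenyl diphosphate isomerase, had 3343 and 3046 in anti-CD226 libraries and 3254 and 3356 in isotype libraries, and its log2 fold change was -0.05 ± 0.16 (SE). For 5 of the 6 genes anti-CD226 2 was the lowest library, which it was for 37.2% of genes tested, and without that library the median log2 fold change of the group was 0.11. The pathway's summed share was 0.0701% and 0.0609% in anti-CD226 libraries and 0.0657% and 0.0663% in isotype libraries (exact permutation p = 1.0).

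The 10 enzymes from squalene synthase to dehydrocholesterol reductase were the steadiest group by their median SD of log2 values over the libraries, 0.11, against 0.16 to 0.30 for the other role groups. Their intervals all lay within 1.5-fold, their log2 fold changes lay between -0.14 and 0.13, and the median was -0.03, with 3 higher and 7 lower on average in anti-CD226 libraries. With each library's trend along transcript length removed, the median was -0.08. Their summed share was 0.0899% and 0.0886% in anti-CD226 libraries and 0.0937% and 0.0876% in isotype libraries (exact permutation p = 1.0).

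Sqle, squalene epoxidase and a rate-limiting enzyme of the sterol branch, had 2120 and 2065 normalised reads in anti-CD226 libraries and 2145 and 1775 in isotype libraries. Only isotype 2 stood lower, and the log2 fold change was 0.10 ± 0.17 (SE). Cyp51, the lanosterol demethylase, had 2292 and 2146 in anti-CD226 libraries and 2387 and 2162 in isotype libraries. These are a pair of high and low values in each group, and the log2 fold change was -0.03 ± 0.16 (SE). Lss, lanosterol synthase, had 1348 and 1501 in anti-CD226 libraries and 1650 and 1266 in isotype libraries, so the isotype values enclosed those of anti-CD226.

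Sc5d, a sterol desaturase near the end of the route, had 1621 and 1572 normalised reads in anti-CD226 libraries and 1628 and 1771 in isotype libraries. Its groups did not overlap, but the gap between anti-CD226 1 and isotype 1 was smaller than the differences within either group, and the log2 fold change was -0.09 ± 0.16 (SE; limma adjusted p = 0.982). Dhcr7, which makes cholesterol from its dehydro precursor, had 550 and 679 in anti-CD226 libraries and 642 and 702 in isotype libraries. Its log2 fold change of -0.14 ± 0.19 (SE) was the lowest of the group, with a 95% interval from -0.57 to 0.30. Hsd17b7, a ketoreductase of the route, had the highest fold change of the group, 0.13 ± 0.19 (SE) on the log2 scale, with 515 and 646 normalised reads in anti-CD226 libraries and 551 and 503 in isotype libraries.

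The other 4 enzymes of the group had log2 fold changes between -0.11 and 0.06. They were Fdft1 (squalene synthase), Msmo1 (methylsterol monooxygenase), Nsdhl (a decarboxylating sterol dehydrogenase) and Ebp (a sterol isomerase). Msmo1 had 1282 and 1121 normalised reads in anti-CD226 libraries and 1328 and 1269 in isotype libraries. Ebp had 1363 and 1231 in anti-CD226 libraries and 1181 and 1301 in isotype libraries. The groups overlapped for all 4.

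Among the regulators, Insig1, which retains SREBP precursors and is itself an SREBP target, lies at chr5:28071363-28078662. It had 1431 and 1429 normalised reads in anti-CD226 libraries and 1612 and 1515 in isotype libraries. The anti-CD226 values were nearly equal and below both isotype values, but the log2 fold change of -0.13 ± 0.16 (SE) did not pass limma's test (adjusted p = 0.982). Its 95% interval ran from -0.50 to 0.24. Insig1 and Hmgcs1, both classical SREBP targets, separated the groups in opposite directions. Such separation was found for 14.3% of the genes described here, against 26.8% of genes tested. For Sqle, Cyp51, Idi1 and Msmo1, enzymes of the sterol route, the groups overlapped.

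Srebf2, which encodes SREBP2, the main activator of sterol genes, had 3309 and 4923 normalised reads in anti-CD226 libraries and 3600 and 3176 in isotype libraries. Anti-CD226 2 was high, and anti-CD226 1 lay between the isotype libraries. Its log2 fold change was 0.26 ± 0.22 (SE; limma adjusted p = 0.982). Srebf1, which encodes the SREBP1 forms that favour fatty acid genes, had 2487 and 3325 in anti-CD226 libraries and 2939 and 2248 in isotype libraries. Its libraries interleaved, and the log2 fold change was 0.16 ± 0.21 (SE). Stard4, a carrier of cholesterol between membranes, had 809 and 683 in anti-CD226 libraries and 782 and 783 in isotype libraries, with a log2 fold change of -0.07 ± 0.18 (SE). Over the 4 regulators and transport genes the median log2 fold change was 0.04, with 2 higher and 2 lower, and -0.04 with the length trend removed.

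**Figure D2:**
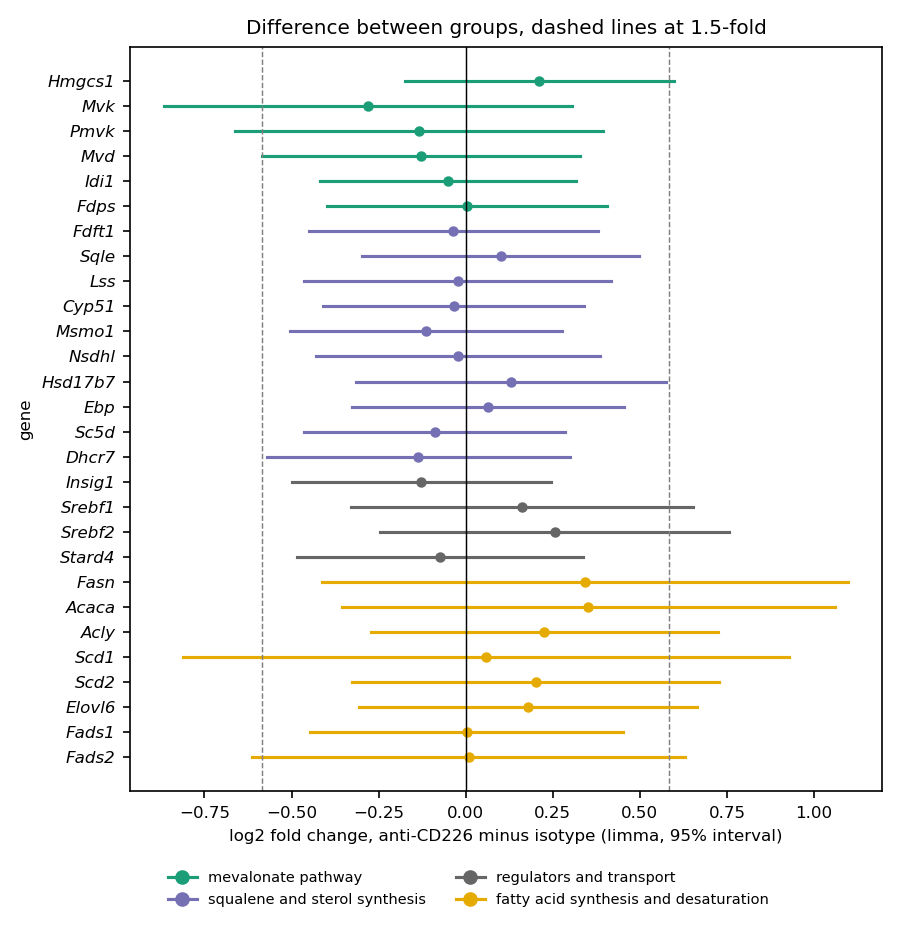
Log2 fold changes of the 28 genes, anti-CD226 minus isotype, with limma's 95% intervals, coloured by role and with dashed lines at 1.5-fold. All 28 intervals include 0, all 10 squalene and sterol enzymes lie within the dashed lines, and the 8 fatty acid genes have points above 0, of which Fads1 and Fads2 turn negative with upper quartile scaling.

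The 8 genes of fatty acid synthesis and desaturation were all higher on average in anti-CD226 libraries, with a median log2 fold change of 0.19, but Fads1 was lower with scaling to the total, the upper quartile or by quantiles, and Fads2 with the upper quartile. None passed the test. The libraries within each group differed more than the groups did: their summed share was 0.122% and 0.191% in anti-CD226 libraries and 0.155% and 0.106% in isotype libraries. The mean was 0.156% ± 0.048 with anti-CD226 and 0.131% ± 0.035 with isotype (SD, n = 2 each; exact permutation p = 0.667). Anti-CD226 2 was the highest library for 7 of the 8, as it was for 37.0% of genes tested, and isotype 2 the lowest for 5, as it was for 27.8%.

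Fasn, the multi-enzyme synthase that builds palmitate, lies at chr11:120805846-120824547 on the minus strand. It had 6648 and 11847 normalised reads in anti-CD226 libraries and 9162 and 5348 in isotype libraries. From low to high the libraries ran isotype 2, anti-CD226 1, isotype 1, anti-CD226 2. Within the anti-CD226 group the second library held 1.78 times the first, and within the isotype group the first held 1.71 times the second, while the log2 fold change between groups was 0.34 ± 0.33 (SE; limma adjusted p = 0.982). Acaca, acetyl-CoA carboxylase, which makes the malonyl-CoA that FASN uses, had the same order of libraries, with 623 and 1061 in anti-CD226 libraries and 802 and 506 in isotype libraries. Its log2 fold change was 0.35 ± 0.31 (SE; limma adjusted p = 0.982), the largest of the 28, with a 95% interval from -0.36 to 1.06.

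Acly, ATP citrate lyase, which supplies acetyl-CoA to both routes, had 5907 and 8158 normalised reads in anti-CD226 libraries and 6770 and 5203 in isotype libraries. Scd2, a stearoyl-CoA desaturase, had 2305 and 3196 in anti-CD226 libraries and 2769 and 2014 in isotype libraries. Both followed the order of libraries seen for Fasn and Acaca, with log2 fold changes of 0.23 ± 0.22 and 0.20 ± 0.23 (SE). That order was found for 4 of the 8 fatty acid genes and 7 of the 28, against 13.7% of genes tested.

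Elovl6, which elongates palmitate, was the fatty acid gene whose groups did not overlap. It had 225 and 185 normalised reads in anti-CD226 libraries, against 185 and 176 in isotype libraries. Anti-CD226 2 and isotype 1 were within 1 normalised read of each other, and the log2 fold change of 0.18 ± 0.21 (SE) did not pass limma's test (adjusted p = 0.982). Fads1 and Fads2, the desaturases of polyunsaturated fatty acids, lie close together on chromosome 19 and had log2 fold changes of 0.0028 ± 0.19 and 0.0087 ± 0.27 (SE). Fads2 had 178 and 270 in anti-CD226 libraries and 254 and 187 in isotype libraries, one high and one low library in each group.

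The 2 stearoyl-CoA desaturase genes of the set, Scd1 and Scd2, were far apart in level. Scd1 had 32.0 and 46.0 normalised reads in anti-CD226 libraries and 30.3 and 44.7 in isotype libraries, on 27.4 to 57.9 estimated reads per library. Per kilobase of transcript, Scd1 had 8.08 in anti-CD226 libraries and 7.76 in isotype libraries, and Scd2 had 504 in anti-CD226 libraries and 438 in isotype libraries. Both genes lie on chromosome 19 and are close in sequence, and how reads matching both were counted is not given in the sources used here. Of the 11 genes with under 1000 estimated reads in every library, Scd1, Fdft1 and Acaca had fractional estimated reads throughout. The 95% interval of Scd1, from -0.81 to 0.93 on the log2 scale, was the widest of the 28. With 2 libraries a group, differences of either sign inside this interval remain compatible with the values.

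**Figure D3:**
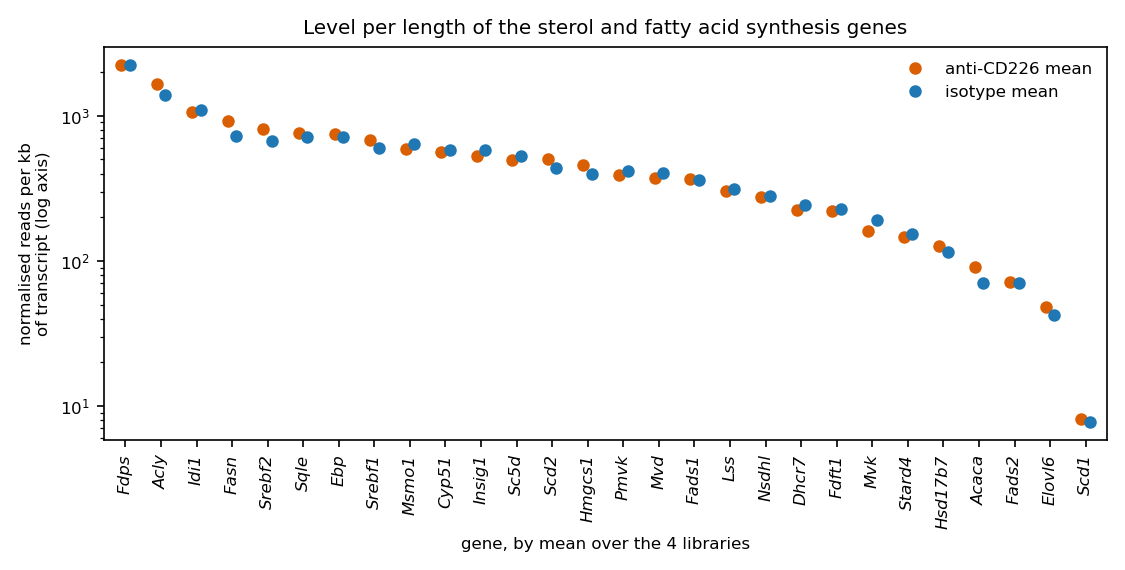
Group means of normalised reads per kilobase of transcript (log axis) for the 28 genes, ordered by their mean over the 4 libraries, anti-CD226 in orange and isotype in blue. Levels run from 2236 for Fdps to 7.92 for Scd1, and for Fdps the group means are 2244 for anti-CD226 and 2228 for isotype.

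Per length, the 28 genes ranked high in these cells. By mean normalised reads per kilobase of transcript, their median percentile among genes tested was 76.5. Fdps was first with 2236 per kilobase (percentile 95.7), followed by Acly with 1522, Idi1 with 1074 and Fasn with 821. Srebf2, Sqle and Ebp followed with 739, 735 and 728, differences that were smaller than the spread of Srebf2 between libraries. The lowest were Acaca with 80.7, Fads2 with 70.6, Elovl6 with 45.1 and Scd1 with 7.92 (percentile 6.97). The order among the fatty acid genes therefore spanned most of the range, while the 16 enzymes of the mevalonate and sterol routes lay between 120 for Hsd17b7 and 2236 for Fdps.

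Which libraries were high or low for a gene went with transcript length. The median transcript of the 28 was 3317 bases, against 2651 for genes tested, 21 of the 28 were longer than that median, and Fasn (10050 bases) and Acaca (9269 bases) exceeded the 90th percentile of 5860 bases. Across the 28 genes, Spearman's rho between length and deviation from the gene's mean was -0.60 and 0.71 in anti-CD226 1 and 2 and 0.18 and -0.62 in isotype 1 and 2, as a description over genes that share a library and its depth. Across 12737 genes tested with a length, the values were -0.38 and 0.55 in anti-CD226 1 and 2 and 0.0083 and -0.50 in isotype 1 and 2. The 21 longer genes had a median log2 fold change of 0.06, and the 7 others of -0.11. With each library's length trend removed, these medians were -0.04 and 0.00097. The median of the fatty acid genes was then 0.06, with Scd1, Fads1 and Fads2 below 0, and Fasn and Acaca had 0.13 and 0.15.

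**Figure D4:**
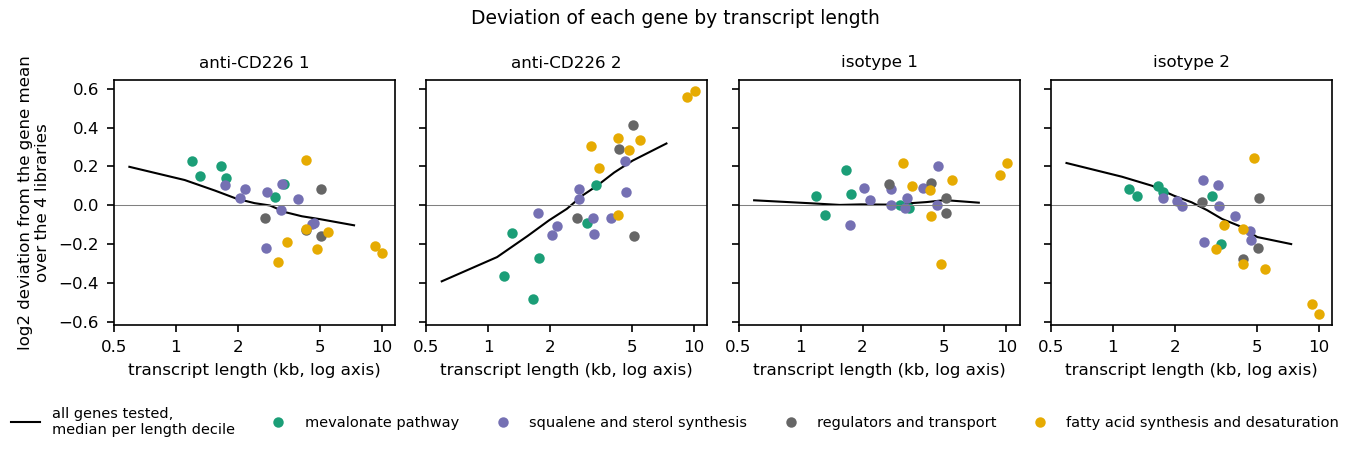
Log2 deviation of each gene from its mean over the 4 libraries against transcript length (log axis), 1 panel per library, with the 28 genes as points coloured by role and the median of all genes tested per length decile as a line. In anti-CD226 2 Fasn and Acaca lie at 0.59 and 0.56 above a line that ends at 0.32, and in isotype 2 at -0.56 and -0.51 below a line that ends at -0.20.

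Anti-CD226 2 was the highest library for 7 of the 8 fatty acid genes. It was highest for 7 of the 11 macrophage markers with a value, and for 37.0% of genes tested. Csf1r, among these 7 markers, was low throughout, with 1.03 and 2.62 normalised reads in anti-CD226 libraries and 2.21 and 1.90 in isotype libraries. Of the other 4 markers, Ctss and Itgam were highest in anti-CD226 1, Apoe in isotype 1 and Adgre1 in isotype 2. The markers summed to 595 and 1928 normalised reads in anti-CD226 libraries and 304 and 292 in isotype libraries. In anti-CD226 2 the sum rested largely on Chil3 (784) and Mmp12 (678). In the other libraries Ctss was the largest part, with 289 in anti-CD226 1 and 190 and 230 in isotype 1 and 2. The part of macrophage RNA and of transcript length in the values of these genes was not tested. Calls depended on anti-CD226 1: without it, limma called 4 of the 28 genes, against 1633 genes in all (12.6%). They were Fasn (log2 fold change 0.76), Acaca (0.74), Srebf2 (0.54) and Mvk (-0.62), with the lone anti-CD226 library taken to vary like the isotype ones. The share of the 28 was near that of all genes tested. Without anti-CD226 2 the median of the fatty acid genes was -0.05, and without isotype 2 it was -0.0041. No other removal of a library called any of the 28, against 12 genes (0.0922%) without isotype 1, 17 (0.131%) without isotype 2 and 53 (0.407%) without anti-CD226 2.

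A further 18 genes of sterol synthesis and SREBP control gave 17 genes tested, with 11 higher and 6 lower on average in anti-CD226 libraries and a median log2 fold change of 0.04. The number called at an adjusted p below 0.05 was 0 of 17, and by limma 0 of 17 had an unadjusted p below 0.05. Tm7sf2, a sterol reductase, had 96.8 and 63.9 normalised reads in anti-CD226 libraries and 104 and 110 in isotype libraries. Lbr, a reductase of the same step that also anchors chromatin at the nuclear envelope, had 10317 and 11832 in anti-CD226 libraries and 9892 and 8592 in isotype libraries. Both separated the groups, in opposite directions, with log2 fold changes of -0.44 ± 0.28 and 0.26 ± 0.17 (SE). Of the 17, the groups did not overlap for 1 higher and 2 lower with anti-CD226, against 13.8% and 13.0% of all genes tested.

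Rnf139, a ubiquitin ligase of the endoplasmic reticulum, had 689 and 586 normalised reads in anti-CD226 libraries and 774 and 673 in isotype libraries. Cyb5a, the cytochrome that passes electrons to desaturases and sterol oxidases, had 4756 and 3164 in anti-CD226 libraries and 4247 and 4682 in isotype libraries. The groups overlapped for both, and the log2 fold changes were -0.18 ± 0.18 and -0.20 ± 0.22 (SE). Without anti-CD226 1 that of Cyb5a was -0.49, and without anti-CD226 2 it was 0.09, each from a fit with a lone anti-CD226 library.

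Of 20 further fatty acid genes, 15 were tested, with 8 higher and 7 lower on average in anti-CD226 libraries, a median log2 fold change of 0.0086 and 0 at an unadjusted limma p below 0.05. Oxsm and Mcat, enzymes of the separate mitochondrial route, differed in opposite directions on average. Oxsm had 97.8 and 100.3 normalised reads in anti-CD226 libraries and 61.9 and 83.4 in isotype libraries, and Mcat had 325 and 298 in anti-CD226 libraries and 343 and 443 in isotype libraries. Both pairs of groups were separate, with log2 fold changes of 0.46 ± 0.26 and -0.32 ± 0.20 (SE). Of the 15, the groups did not overlap for 2 higher and 2 lower with anti-CD226, against 13.8% and 13.0% of all genes tested. Acss2, which makes acetyl-CoA from acetate, had 97.8 and 151 in anti-CD226 libraries and 85.1 and 98.1 in isotype libraries, and Hacd1, a dehydratase of fatty acid elongation, had 35.9 and 19.8 in anti-CD226 libraries and 35.1 and 36.9 in isotype libraries. The groups overlapped for Acss2 and for Hacd1.

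Of 18 genes of the sterol-sensing LXR receptors, their targets and cholesterol handling, 15 were tested, with 9 higher and 6 lower on average in anti-CD226 libraries and a median log2 fold change of 0.05. The number called at an adjusted p below 0.05 was 0, and the number at an unadjusted limma p below 0.05 was 1, higher in anti-CD226 (1.55% of genes tested were). Osbp, an oxysterol-binding protein that exchanges lipids between the endoplasmic reticulum and the Golgi, had 1230 and 648 normalised reads in anti-CD226 libraries, against 346 and 495 in isotype libraries. Both anti-CD226 libraries lay above both isotype libraries, and anti-CD226 1 was far above the rest. Its log2 fold change was 1.11 ± 0.32 (SE; limma adjusted p = 0.982), with a 95% interval from 0.37 to 1.84. It was 0.65 without anti-CD226 1 and 1.57 without anti-CD226 2, each from a fit with a lone anti-CD226 library. Gramd1c, a sterol transfer protein, had 51.5 and 77.2 in anti-CD226 libraries and 51.9 and 37.1 in isotype libraries. Soat1, which esterifies cholesterol, had 1098 and 1498 in anti-CD226 libraries and 1083 and 1114 in isotype libraries. Nceh1, which hydrolyses cholesterol esters, had 902 and 961 in anti-CD226 libraries and 860 and 808 in isotype libraries. Nceh1 separated the groups while Gramd1c and Soat1 did not, and their log2 fold changes lay between 0.16 and 0.51. Of the 15, the groups did not overlap for 3 higher and 1 lower with anti-CD226, against 13.8% and 13.0% of all genes tested.

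Several of the 28 genes overlap another gene. Fdft1 overlaps Ctsb, Cyp51 overlaps Akap9 and Srebf1 overlaps Rai1, each on the opposite strand, Hmgcs1 and Lss each overlap an antisense gene of low value, and Fdps and Srebf2 each share their strand with an annotated gene of low value. Whether counting used strand is not given in the sources used here, so values of the overlapping genes are uncertain by what those partners contribute.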

How the data were processed

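Sorted lung ILC2s of 2 groups, anti-CD226 and isotype, gave 2 libraries each. Per the labels' protocols, cDNA was made from 10 pg of RNA with a low-input kit (the unit may be misstated). The deposited table holds 1 signal value per gene and library, which the authors made by scaling read counts. The tools named, per the submitters' processing notes, are Partek 10.0, DESeq2 and STAR 2.7.8, with build mm10. Counter, annotation and strand setting were not given in the sources used here. Between 73.6% and 75.1% of each library's values from 0.5 to 1000 steps were whole multiples of 1 step (tolerance 0.02), so no count model was run. Depth was estimated as the total divided by the step, whose value was 0.773 to 1.11 normalised reads. Amplified reads are not independent molecules.

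Genes with a mean of 10 or more were fitted on log2(value + 1), a scale that understates changes of low genes, with limma 3.58.1 (R 4.3.3) and its trended variance prior. The fit was two-sided, without a replicate term, with 2 residual and 5.81 prior degrees of freedom, and was tested on simulated data. Transcript length was the median over principal transcripts in GENCODE M21 on GRCm38. Lowess with a span of 0.3 removed the length trend in an alternative. Alternatives also covered pseudocount, filter, scaling, variance prior, replicate block and leaving out each library.

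The genes, partner lists and rules were chosen with earlier results of these data known. Some genes of the sterol partner list are not reported here. Named were all 28 genes, the 4 of smallest p among the reported genes of each partner list, and the markers Gata3, Il1rl1, Chil3, Mmp12 and Sftpc. Mpeg1, Ctss, Itgam, Apoe, Adgre1, Csf1r, Il5, Il13, Rora, Etv5, Sftpa1, Cd3g and Col1a1 were named after their values were seen. Marker lists of T cells, fibroblasts and adipocytes were also read out, and B cell markers were not analysed here. Python 3.11.15, pandas 2.3.3, scipy 1.17.1 and matplotlib 3.10.9 were used.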

Additional observations from a re-analysis of the deposited data

How the results depend on the processing

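Under changes of pseudocount, filter, variance prior or trend, 0 of the 28 genes passed, as with the values reported, and no sign turned. Scd1 has no value under a filter of 50. A sign turned under scaling to the total for Fdps (-0.0036) and Fads1 (-0.0045), under the upper quartile for Fdps (-0.020), Fads1 (-0.021), Fads2 (-0.015) and Il1rl1 (-0.013), and under quantiles for Fdps (-0.014), Fads1 (-0.016) and Il1rl1 (-0.011). With the length trend removed, log2 fold changes turned for Pmvk (0.00097), Nsdhl (0.0079), Scd1 (-0.071), Fads1 (-0.057), Fads2 (-0.035) and Il1rl1 (-0.13), and the squalene and sterol median was -0.079. The cause of these turns was not tested.

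Leaving out 1 library at a time, limma called between 12 and 1633 of 13010 genes and between 0 and 4 of the 28 (12 genes without isotype 1, 17 without isotype 2, 53 without anti-CD226 2 and 1633 without anti-CD226 1), and between 0 and 8 of the 28 and between 164 and 3494 genes had an unadjusted p below 0.05. The 8 of 28 (28.6%) stood beside 26.9% of genes tested, without anti-CD226 1. The lone library of a group is then assumed to vary like the others. The mevalonate median ran from -0.24 to 0.11. Log2 fold changes that turned sign in some removal ran from -0.14 to 0.15 for Fdps, -0.21 to 0.17 for Lss, -0.11 to 0.037 for Cyp51, -0.010 to 0.14 for Ebp, -0.22 to 0.33 for Scd1, -0.036 to 0.24 for Sqle, -0.047 to 0.37 for Srebf1, -0.074 to 0.76 for Fasn, -0.035 to 0.44 for Scd2, -0.19 to 0.19 for Fads1, -0.29 to 0.31 for Fads2, -0.055 to 0.076 for Il1rl1, -0.29 to 0.016 for Dhcr7, -0.62 to 0.061 for Mvk, -0.43 to 0.16 for Pmvk, -0.33 to 0.079 for Mvd, -0.12 to 0.017 for Idi1, -0.16 to 0.093 for Fdft1, -0.12 to 0.074 for Nsdhl, -0.033 to 0.29 for Hsd17b7, -0.031 to 0.54 for Srebf2, -0.20 to 0.048 for Stard4, -0.032 to 0.74 for Acaca, -0.0069 to 0.46 for Acly, -0.49 to 0.093 for Cyb5a and -0.0012 to 0.45 for Soat1. Hmgcs1, Msmo1, Sc5d, Insig1 and Elovl6 kept their sign in all 4 removals.

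Same-numbered libraries deviated in opposite directions (correlation of within-group differences -0.241 over 13010 genes), so the number in the titles was not taken as a pairing. With it as a replicate block, 20 of 13010 genes and 0 of the 28 were called. With the pairs crossed, which was added after seeing the data, 61 genes and 0 of the 28 were called, and 2 of the 28 (7.14%) had an unadjusted p below 0.05, as did 1267 genes (9.74%). With 2 libraries a group, a 1.5-fold difference lay inside the 95% interval for 13 of the 28 genes.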

Other observations

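The marker lists gave the following sums in normalised reads. The 12 ILC2 markers, all tested, summed to 161483 and 140492 in anti-CD226 libraries and 166712 and 170536 in isotype libraries, with 6 higher and 6 lower on average with anti-CD226. Il5 alone had 85431 and 67864 in anti-CD226 libraries and 95010.2 and 97655 in isotype libraries, and the other 11 summed to 76052 and 72628 in anti-CD226 libraries and 71702 and 72880.5 in isotype libraries. The 3 T cell markers with a value summed to 375 and 295 in anti-CD226 libraries and 356 and 383 in isotype libraries. Cd3g made up most of these sums, with 319 and 215 in anti-CD226 libraries and 288 and 325 in isotype libraries. The only fibroblast or adipocyte marker with a value, Col1a1, had 1.03 and 0 in anti-CD226 libraries and 9.95 and 1.55 in isotype libraries. The 6 alveolar type II markers with a value summed to 1589 and 2180 in anti-CD226 libraries and 1753 and 1640 in isotype libraries. Etv5 made up most of these sums, with 1255 and 1784 in anti-CD226 libraries and 1394 and 1244 in isotype libraries. The surfactant genes Sftpc and Sftpa1 were listed at 0 except in isotype 2, where they had 22.4 and 10.0.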
